A study of Drosophila melanogaster with 12 samples.

Results

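Genes on the heterochromatin scaffolds of the Drosophila genome build dm3 were followed in S2 cells, a cultured line of embryonic origin with features of hemocytes, after knockdown of Sin3A, of Sam-S or of both. The members were all gene rows whose locus lies on 2LHet, 3LHet, 3RHet, XHet, YHet, U or Uextra, which gave 228 of the 14542 rows of the SIN3 table and the same 228 among the 14540 rows of each other table. The wild type cells were treated for 4 days with double-stranded RNA (dsRNA) against GFP (control), against Sin3A, against Sam-S, or against both genes, with 3 samples in each of the 4 groups. The authors pooled each group into 1 FPKM value per gene row (fragments mapped, scaled by transcript length and by the library's total), so the values have no SD and read depth is unknown.

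Heterochromatin is the part of the genome that stays condensed, in flies mainly around the centromeres and over the Y chromosome, and it is rich in repeats. It carries methylation of lysine 9 of histone H3, made from the methyl donor S-adenosylmethionine, and is bound by HP1 proteins. Many fly genes nevertheless sit in it, many with very long introns, and some need that setting to be expressed. In dm3, sequence from these regions that was mapped to a chromosome arm but not joined to it forms the scaffolds with names ending in Het. Sequence with no known chromosome was put on U and on Uextra. SIN3 holds together a complex that removes acetyl groups from histones. Sam-S makes the methyl donor itself.

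The targeted genes were read first, because they check the labels. Sam-S fell from 242 to 62.0 FPKM in the cells given its dsRNA alone and from 243 to 91.2 FPKM in those given both dsRNAs, with q = 0.0306 and q = 0.00157 in the authors' deposited tables. In the samples labelled SIN3 knockdown Sam-S rose from 239.9 to 484 FPKM (log2 ratio 1.01), and the authors' deposited table gave q = 0.00172. Sin3A went from 67.9 FPKM (control) to 61.7 in the samples labelled SIN3 knockdown, and from 68.5 to 64.7 in those labelled double knockdown. Neither Sin3A difference was called, with q = 0.931 and q = 0.930 in the authors' deposited tables, so both groups are called below by their labels, and the double knockdown means the samples labelled so. Hemocyte markers were detected, with 8 of the 9 matched genes of the list at 1 FPKM or more in the control, among them Nplp2 (24886), He (774) and Pvr (264). Hml was low, at 0.779 FPKM, and NimC1 had no row under that symbol.

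Most of the 228 rows held no signal. In all, 186 were at 0 FPKM in every group of every table, 10 were above 0 but were not tested by the authors, 2 were tested in a single table with a control value of 0, and 30 were tested in every table with a value above 0. Outside the scaffolds, 56.5% of 14314 rows of the SIN3 table were tested and 15.2% were at 0. Detection followed the scaffold. Of 4 rows on 2LHet 3 were tested in every table, of 20 on 3LHet 14, of 18 on 3RHet 5, and of 11 on XHet 8, while no row of YHet, U or Uextra was tested.

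**Figure D1:**
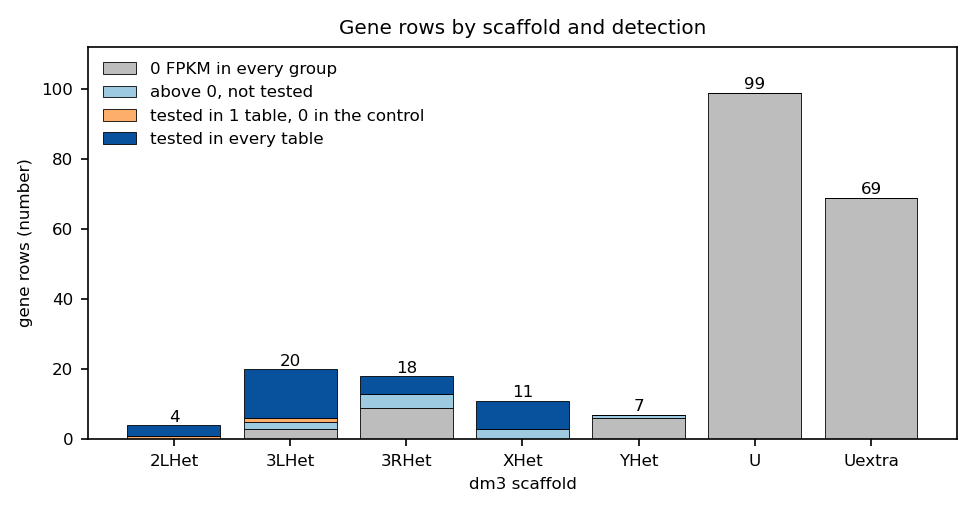
Number of gene rows on each scaffold, split by detection; the number above each bar is its total. All 168 rows of U and Uextra were at 0 FPKM in every group, and 14 of the 20 rows of 3LHet were tested in every table.

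All 99 rows on U and all 69 rows on Uextra were at 0 FPKM in every group. They carry 158 symbols. Of these rows, 44 are copies of Suppressor of Stellate, the Y-linked repeats that silence the X-linked Stellate genes in the male germline, and SteXh:CG42398, a Stellate copy, was at 0 as well. Another 8 rows begin with a histone gene and 15 name a small non-messenger RNA gene (snmRNA). The unplaced rows also hold genes with general cell functions, such as Maf1, a repressor of RNA polymerase III, and CG17691, which RefSeq names BckdhB, for a subunit of the enzyme that breaks down branched-chain keto acids. Since such genes were at 0 too, a value of 0 on U or Uextra says only that the gene is listed at 0 in these tables. Of the 158 symbols, 18 also occur in 26 rows elsewhere in the SIN3 table, and 22 of those 26 rows were at 0 in both conditions. The exceptions were CG3176 (control 4.97 FPKM), CG32640 (8.54), a merged His4 row (55.5) and JYalpha on chromosome 4, which was at 0 in its control and at 0.0538 FPKM in the SIN3-labelled samples.

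Y-linked genes, which act in sperm formation and are used in spermatocytes, were at or near 0 in the tables. On YHet the dynein heavy chain genes kl-2, kl-3 and kl-5, the coiled-coil gene Ory, Pp1-Y2 and Ppr-Y were at 0 FPKM in every group. The row of fdy, a Y-linked copy of part of vig2, stood at 0.0391 FPKM in the control, 0.0889 in the samples labelled SIN3 knockdown, 0.0351 after SAM-S knockdown and 0.125 in the samples labelled double knockdown. The parent gene vig2 stood at 166 FPKM in the control, and reads from near-identical copies cannot be told apart in such tables. ARY, which dm3 lists on 3LHet, and Pp1-Y1, on U, were at 0. So were the U rows whose names RefSeq gives as synonyms of PRY alone (3 rows), WDY alone (2 rows) or CCY alone (1 row). RefSeq lists CG40245 and CG40583 under WDY, and CG40948 and CG40968 under CCY, but each also under another gene, and these 4 U rows were at 0 too.
Of 9 male germline genes listed as the other site of Y gene use, 2 reached 1 FPKM in the control, aub at 36.9 FPKM and bgcn in a row merged with wibg, while Mst84Db was at 0. Few of the 9 were tested: 4 in the samples labelled SIN3 knockdown, 3 after SAM-S knockdown and 4 in the double knockdown. None of those was called. Calls made up 7.68%, 0.163% and 9.62% of all rows tested, so the lack of calls among so few genes does not set the list apart.

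The scaffolds break some genes into pieces. Counting names that are synonyms of a single RefSeq gene (assembly Release 6), 8 present-day protein-coding genes were represented by 31 older gene names among the members. The 7 names that RefSeq lists under several genes were left out of this count. The myosin gene Myo81F was spread over 10 names on 3RHet and U, and Pzl, a gene for a mechanosensory Piezo-like channel, over 5, all at 0. The vesicular transporter gene lovit corresponds to CG40467 and CG41343 on 3LHet and to CG41087 on U. Of its 3 pieces, CG40467 held signal, at 2.17 FPKM in the control, and the other two were at 0.

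Below the authors' test, 10 rows had small values. The highest was CG17169 on XHet, with a control value of 0.320 FPKM and 0.689 FPKM after SAM-S knockdown. The homeobox gene scro on 3LHet had 0.333 FPKM as the SIN3 table's control value and 0.191 in the samples labelled SIN3 knockdown. The steroid synthesis gene spok on 3RHet was at 0 in every group but the double knockdown, at 0.0110 FPKM. CG17374 on 3LHet, the fatty acid synthase gene FASN3 of RefSeq, had control values near 0.0293 FPKM.

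The 30 tested rows had a higher median control value than all tested rows, though 8 of the 30 were under 10 FPKM. The median of the 30 in the SIN3 table was 41.3 FPKM, against 24.2 FPKM over all 8100 tested rows with a value above 0 in both conditions. RefSeq names matched 29 of the 30. Of them, 26 are protein-coding, 1 is a pseudogene and 2 are ribosomal RNA pseudogenes. The ribosomal protein gene RpL15 (3LHet, 2397791 to 2398981) was highest, at 3538 FPKM, and the lowest was CG40467, at 2.17 FPKM. Control values of the 30 rows in the other tables were 1.00 to 1.02 times those of the SIN3 table.

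In the samples labelled SIN3 knockdown, 7 of these 30 rows fell and none rose. A row was called at a deposited q under 0.05, and of all rows tested there 7.68% were called, 4.35% lower and 3.34% higher. The 7 rows were CG40178, CG40160 and CG40002 on 3LHet, CG41128 and Parp on 3RHet, and CR40677 and CR41602 on XHet. Among all 30, 29 had negative log2 ratios, with a median of -0.38, against -0.01 and 51.7% negative over all tested rows. The authors' Cuffdiff test gave 13 of the 30 an unadjusted p under 0.05, all with negative values. In pooled cultures, fewer cells that express a gene and less RNA per cell cannot be told apart. Of the 9 hemocyte markers, 5 were called lower in the same samples (list median -0.67). Of the listed dosage compensation genes, roX2, an RNA of that complex, was called lower (81.5 to 47.6 FPKM). In the same list msl-2 was higher but uncalled (25.2 to 32.1 FPKM), and roX1 was untested, at 0.131 FPKM in the control. The part of these genes in the members' values was not tested.

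**Figure D2:**
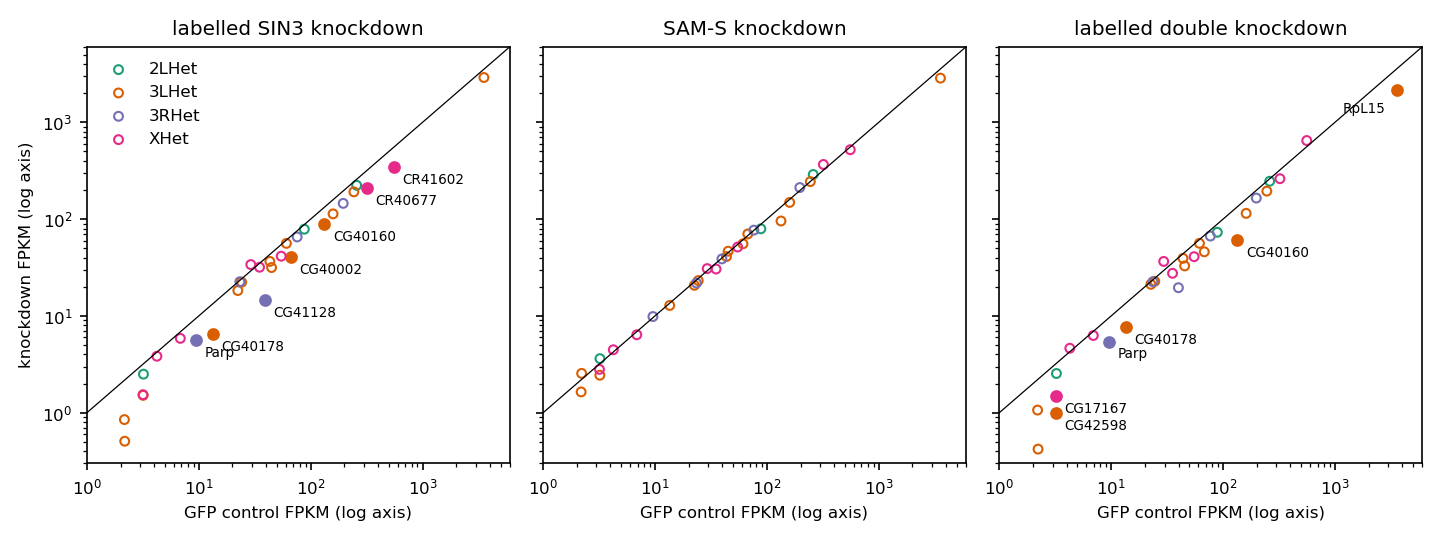
FPKM of the 30 tested rows in the GFP control (x, log axis) and in each knockdown (y, log axis), coloured by scaffold; filled points were called at q under 0.05 in the authors' deposited tables, and the line marks equal values. The 7 rows called in the samples labelled SIN3 knockdown and the 6 in those labelled double knockdown lie below the line, and the SAM-S panel has none.

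CG40178 (3LHet, 1181140 to 1396811), listed in RefSeq as l(3)80Fg, has the longest locus of the tested rows, at 215672 bases. It stood at 13.4 FPKM in the control, 6.44 in the samples labelled SIN3 knockdown, 12.8 after SAM-S knockdown and 7.67 in the samples labelled double knockdown. The levels of the control and of SAM-S knockdown were thus close, and both groups that received Sin3A dsRNA were lower. The log2 ratios of these groups were -1.06 and -0.83, with q = 0.00436 and q = 0.0169 in the authors' deposited tables.

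Parp (3RHet, 1935205 to 2026815) encodes poly(ADP-ribose) polymerase, which modifies chromatin proteins and is known in flies for loosening chromatin at heat shock loci. Its level was 9.50 FPKM in the control, 5.64 in the samples labelled SIN3 knockdown, 9.86 after SAM-S knockdown and 5.43 in the samples labelled double knockdown. As for CG40178, the control and SAM-S knockdown values lay close together and above those of both groups that received Sin3A dsRNA. The log2 ratios were -0.75 and -0.83 in the groups that received Sin3A dsRNA, with q = 0.0449 and q = 0.0221 in the authors' deposited tables.

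CG40160 (3LHet, 1562357 to 1575983), for which RefSeq gives the synonym cSPH242, had its lowest level in the double knockdown. It stood at 133 FPKM in the control, 89.3 in the samples labelled SIN3 knockdown, 95.7 after SAM-S knockdown and 60.6 in the double knockdown. It fell in the samples labelled SIN3 knockdown (-0.57) and in the double knockdown (-1.15), with q = 0.0474 and q = 0.00157 in the authors' deposited tables. The second of these was the lowest q of any member there. After SAM-S knockdown its log2 ratio was -0.48, for which the authors' deposited table gave an unadjusted p of 0.0115 but q = 0.9999.

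Genes for mitochondrial proteins form a group among the tested rows, picked out after their values were seen. They are CG40042, which RefSeq names Tim23, and Tim17b, both of the protein import channel of the inner membrane, CG40002 and CG40472, for which RefSeq gives the synonym NDUFB2, a subunit of respiratory complex I, Ucrh of complex III, and CG41128, with the RefSeq synonym Minos1b. All 6 had negative log2 ratios in the samples labelled SIN3 knockdown, with a median of -0.39, and 2 were called. The same was seen over all 30 members, of which 29 were negative with a median of -0.38 and 7 were called, so these values are not particular to the mitochondrial rows. CG41128 (3RHet, 1806528 to 1808475) stood at 39.3 FPKM in the control, 14.7 in the samples labelled SIN3 knockdown, 38.8 after SAM-S knockdown and 19.6 in the double knockdown. It fell in the samples labelled SIN3 knockdown with a log2 ratio of -1.42, while its -1.03 in the double knockdown missed the threshold. The authors' deposited tables gave q = 0.0190 and q = 0.0552.

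CG40002 (3LHet, 459586 to 460457), the ND-AGGG of RefSeq, stood at 67.1 FPKM in the control, 40.2 in the samples labelled SIN3 knockdown, 70.3 after SAM-S knockdown and 46.0 in the double knockdown. It fell in the samples labelled SIN3 knockdown (-0.74) and was not called in the double knockdown (-0.56), where the authors' deposited tables gave q = 0.0312 and q = 0.101. Its relative CG40472 had values of -0.29 and -0.09. Complex I rows outside the scaffolds were found by their RefSeq symbols after the values were seen. In the samples labelled SIN3 knockdown they had a median of -0.03 over 30 tested rows, with none called, where 7.68% of all rows tested were. In the double knockdown their median was 0.21 over 29 rows with 4 called higher, where 3.48% of all rows tested were. The 6 mitochondrial scaffold rows had a median of -0.30 there. After SAM-S knockdown the medians were 0.08 and 0.03. The sets are unlike, since CG40002 and CG40472 alone of the 6 are placed in complex I. Genes outside the scaffolds with the functions of the other rows were not read.

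**Figure D3:**
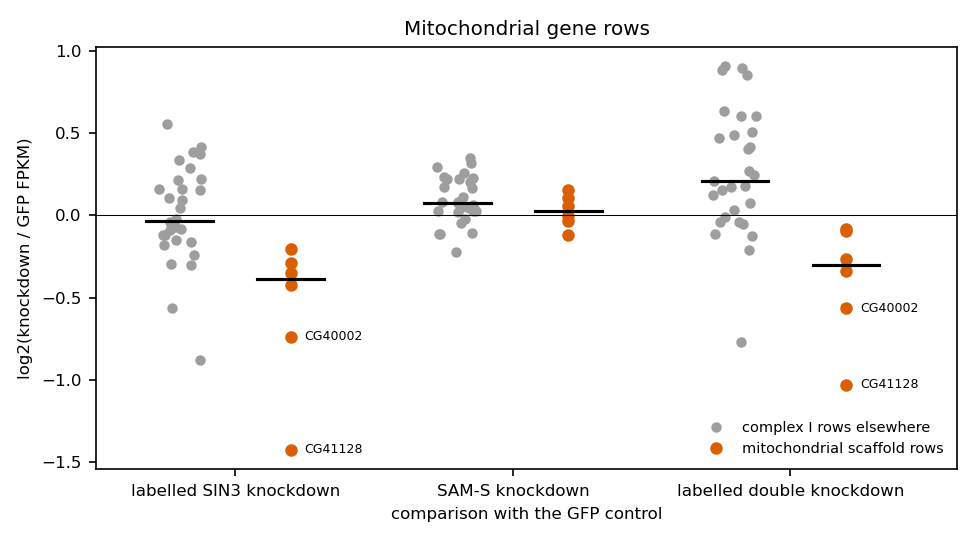
Log2 ratio of knockdown to control FPKM for complex I rows outside the scaffolds (grey) and for the 6 scaffold rows with mitochondrial proteins (orange), 1 point per row and a bar at each median. The scaffold rows all lie below 0 in the samples labelled SIN3 knockdown and labelled double knockdown.

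The remaining calls of the SIN3 table were ribosomal RNA pseudogenes on XHet, whose loci lie within one short stretch of the scaffold. CR40677 (XHet, 184014 to 184944), a 2S rRNA pseudogene in RefSeq, stood at 318 FPKM in the control, 210.2 in the samples labelled SIN3 knockdown, 367 after SAM-S knockdown and 262 in the double knockdown. CR41602 (XHet, 190010 to 196035), an 18S rRNA pseudogene, had 553, 346, 521 and 648 FPKM in the same order. Both fell in the samples labelled SIN3 knockdown, at -0.60 and -0.68, and the authors' deposited table gave q = 0.0232 and q = 0.0295. In the double knockdown they lay on opposite sides of the control, at -0.30 and 0.21, and neither was called (q = 0.397 and q = 0.822 in the authors' deposited table). Reads of rRNA copies cannot be assigned to 1 locus, so these levels are uncertain. Without these pseudogenes, 5 rows were called in the SIN3 table and the median was -0.35.

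After SAM-S knockdown no member was called, where 0.163% of all rows tested were (0.0754% lower and 0.088% higher). By Cuffdiff's unadjusted p, 1 of the 30 rows was under 0.05, the CG40160 row given above. The median log2 ratio of the 30 rows was -0.08, against -0.02 over all tested rows. Values ran from -0.48 for CG40160 to 0.21 for CG41320, and 19 of the 30 were negative. CG40467 (-0.42), CG42598 (-0.40), RpL15 (-0.32) and the merged row of CG17159 and CG17162 (-0.21) had the next lowest values, and CR40677 (0.20), Gpb5 (0.17), CG40042 (0.15) and Tim17b (0.10) the next highest.

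In the double knockdown 6 of the 30 rows fell and none rose, where 9.62% of all rows tested were called, 6.14% lower and 3.48% higher. The 6 rows were CG40178, CG40160, CG42598 and RpL15 on 3LHet, Parp on 3RHet and CG17167 on XHet. The median of the 30 was -0.34 and 27 were negative, against -0.01 and 51.7% over all tested rows. By Cuffdiff's unadjusted p, 10 of the 30 were under 0.05, all with negative values. The 3 comparisons share the control libraries, so likeness between their values is no independent evidence. Of the hemocyte markers, 4 of 9 were called lower here, as was roX2, while msl-2, in a merged row, was not called (log2 ratio 0.09). The part of these genes in the members' values was not tested.

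RpL15, of the large ribosomal subunit, stood at 3538 FPKM in the control, 2904 in the samples labelled SIN3 knockdown, 2861 after SAM-S knockdown and 2175 in the double knockdown. The single knockdowns lay close to each other at -0.28 and -0.32 and were not called. The fall in the double knockdown was -0.72, for which the authors' deposited table gave q = 0.00949. The snoRNA gene snoRNA:Me18S-C419, which guides methylation of 18S rRNA, shares its locus with RpL15. It was listed at 0 FPKM in the control, at 2360 in the samples labelled SIN3 knockdown, at 0 after SAM-S knockdown and at 746 in the double knockdown, and it was tested in the SIN3 table alone (q = 0.554 in the authors' deposited table). The microRNA gene mir-2490, which shares the locus of CG12567 on 2LHet, was listed at 925 FPKM after SAM-S knockdown and at 0 in all other groups, with q = 0.9999 in the authors' deposited table. Neither of these small RNA genes was called, and the read counts behind their values are unknown.

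CG42598 (3LHet, 1645810 to 1652912) stood at 3.19 FPKM in the control, 1.51 in the samples labelled SIN3 knockdown, 2.44 after SAM-S knockdown and 0.988 in the double knockdown. Its fall in the double knockdown had a log2 ratio of -1.71, or -1.09 with 1 added to each FPKM, and q = 0.0226 in the authors' deposited table. CG17167 (XHet, 47121 to 59583) stood at 3.18, 1.54, 2.81 and 1.48 FPKM in the same order. It fell in the double knockdown (-1.11), and its -1.05 in the samples labelled SIN3 knockdown did not pass. The authors' deposited tables gave q = 0.0451 and q = 0.0767.

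**Figure D4:**
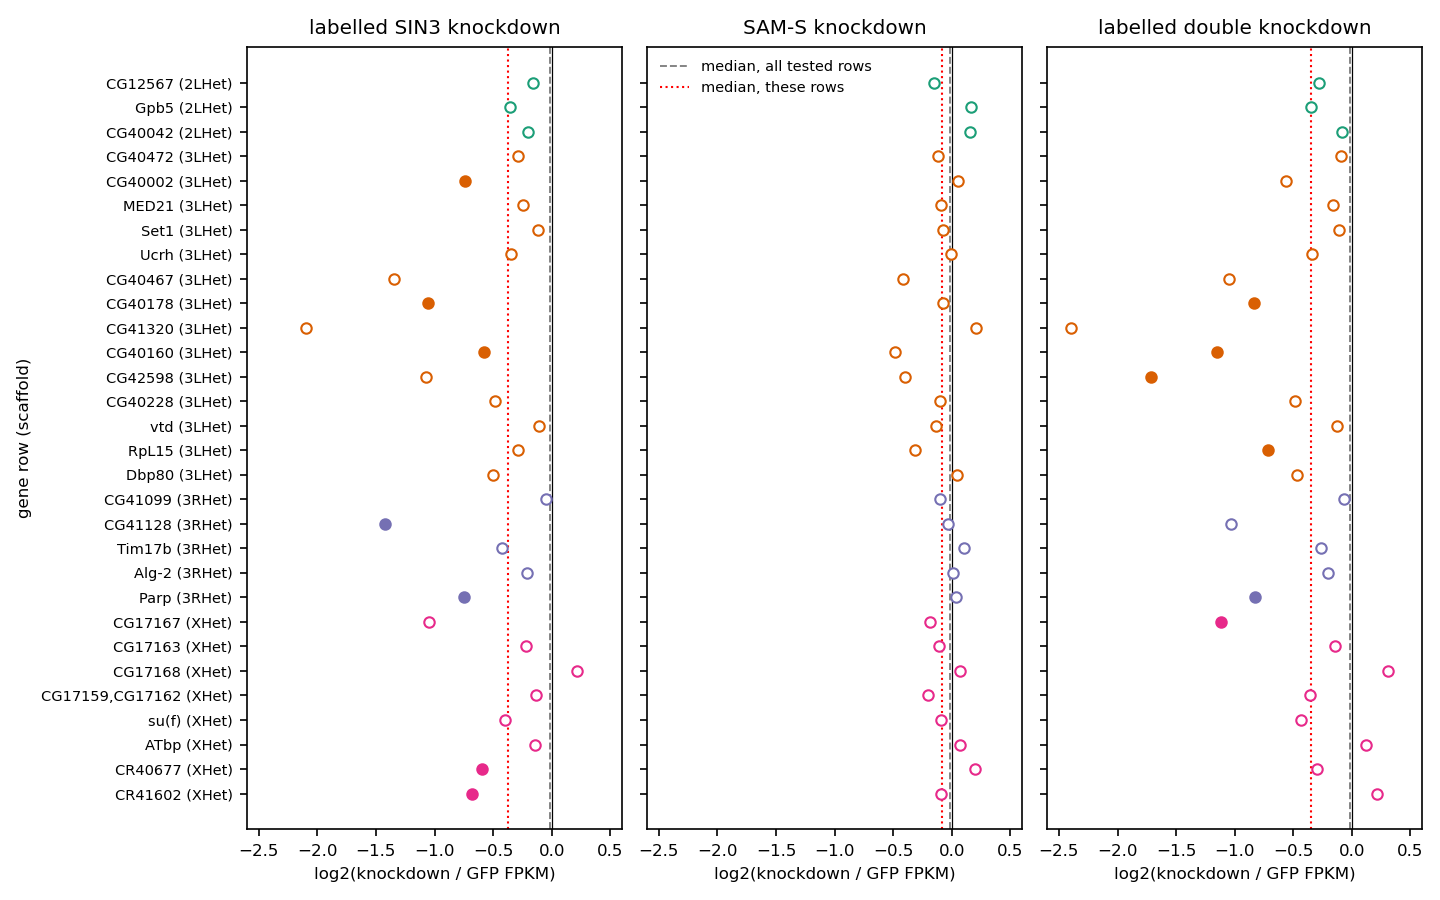
Log2 ratio of knockdown to control FPKM for each of the 30 tested rows, ordered by scaffold and position; filled points were called at q under 0.05 in the authors' deposited tables. Dotted lines mark the median of the 30 rows (-0.38, -0.08 and -0.34) and dashed lines that of all tested rows (-0.01, -0.02 and -0.01).

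In the samples labelled SIN3 knockdown, 22 of the 23 uncalled members had negative log2 ratios, with a median of -0.28, against 51.3% of all uncalled tested rows. Of 24 uncalled members in the double knockdown 21 were negative, with a median of -0.27, against 50.4%. The lowest values of all belonged to CG41320 (3LHet, 1532480 to 1545940), a pseudogene in RefSeq, at 2.18 FPKM in the control, 0.508 in the samples labelled SIN3 knockdown, 2.55 after SAM-S knockdown and 0.421 in the double knockdown. Its log2 ratios of -2.10 and -2.40, or -1.08 and -1.18 with 1 added, had q = 0.143 and q = 0.105 in the authors' deposited tables. CG40467, the lovit piece, had 2.17, 0.850, 1.64 and 1.07 FPKM in the same order of groups. In the samples labelled SIN3 knockdown, 6 of the 30 rows had a log2 ratio under -1, or 20.0%, against 5.01% of all tested rows. The shares in the double knockdown were 20.0% and 5.46%. These counts include called rows, 2 in the first group and 3 in the second, and 4 of the 6 rows in each were under 10 FPKM in the control. Split by level, the share in both was 50.0% of the 8 members under 10 FPKM, against 13.0% of all tested rows under 10 FPKM. At 10 FPKM or more it was 9.09% of the 22 other members in both, against 2.01% and 2.59% of all tested rows. With 1 added to each FPKM, a setting chosen for this count after seeing the data, the 6 rows became 2 in the samples labelled SIN3 knockdown, or 6.67% against 2.12% of all tested rows, and 3 in the double knockdown, or 10.0% against 2.6%.

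Chromatin and RNA processing genes other than Parp, grouped after the values were seen, lay closer to the control than Parp did. Of these, su(f), at -0.40 in the samples labelled SIN3 knockdown, lay beyond the median of the 30 members (-0.38). Set1, a methyltransferase for lysine 4 of histone H3, stood at 24.2 FPKM in the control and 22.3 in the samples labelled SIN3 knockdown. MED21, a Mediator subunit that shares its locus (3LHet, 593050 to 601402), stood at 43.2 and 36.6 FPKM. The cohesin subunit gene vtd was at 60.7 and 56.2 FPKM, and su(f), which acts in cleavage of mRNA 3′ ends, at 54.6 and 41.4 FPKM. The su(f) row is merged with its antisense gene CR43480 in the other tables. None of these was called in any table. Their log2 ratios in the samples labelled SIN3 knockdown, Parp included, ran from -0.75 to -0.11.

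Other tested rows spanned trafficking, signalling and RNA metabolism. Dbp80, a DEAD-box RNA helicase gene whose locus covers 135295 bases, had -0.50 in the samples labelled SIN3 knockdown and -0.47 in the double knockdown. The calcium-binding protein gene Alg-2 had -0.21 and -0.20, CG41099, the Rabankyrin of RefSeq synonyms, -0.05 and -0.07, and the hormone subunit gene Gpb5 -0.36 and -0.35. CG40228 had -0.49 in both and CG12567 -0.16 and -0.28. On XHet, CG17168 (XHet, 61585 to 63394) was the 1 tested row above the control in the samples labelled SIN3 knockdown, at 29.2 and 33.9 FPKM (0.22), and it had 0.31 in the double knockdown. Its neighbours CG17163 and the merged row of CG17159 and CG17162 had -0.22 and -0.13 in the samples labelled SIN3 knockdown, and ATbp had -0.14, with 0.12 in the double knockdown.

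By scaffold, the median log2 ratio in the samples labelled SIN3 knockdown was -0.21 on 2LHet (3 rows), -0.49 on 3LHet (14 rows), -0.43 on 3RHet (5 rows) and -0.31 on XHet (8 rows). In the double knockdown the medians were -0.28, -0.53, -0.26 and -0.22. After SAM-S knockdown they were 0.15, -0.10, 0.01 and -0.09. No call fell on 2LHet.

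In the groups that received Sin3A dsRNA, members of low level and members with long loci had the lower medians. The 8 members under 10 FPKM in the control had a median of -0.90 in the samples labelled SIN3 knockdown and the 22 others -0.32, against -0.14 and 0.01 for all tested rows split alike. Among rows that share their locus with no other row, members with loci of 10 kb or more had a median of -0.66 (10 rows) and shorter ones -0.35 (14 rows). Over all tested rows the medians of long and short loci were -0.10 and -0.02. The splits by level and by length overlap, with a control median of 18.4 FPKM for the long-locus members and 53.2 for the shorter ones. The members' medians in the double knockdown were -0.94 and -0.29 by level, and -0.83 and -0.25 by locus length. Over all tested rows these were -0.19 and 0.02 by level, and -0.10 and -0.01 by length. After SAM-S knockdown the members' medians were -0.03 and -0.08 by level, with the low members nearer to 0, and -0.09 and 0.00 by length. The part of level and locus length in the members' values was not tested.

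Rows in like positions were set beside the members as a description, with no test of the difference. The tables also list 20 rows on 2RHet, of which 16 were tested. Their median was -0.58 in the samples labelled SIN3 knockdown with 4 called lower, -0.06 after SAM-S knockdown with none called, and -0.53 in the double knockdown with 2 called lower. The tested 2RHet loci had a median length of 35.3 kb in the SIN3 table, against 7.73 kb for tested members and 4.13 kb for all tested rows. The part of locus length in the 2RHet values was not tested. A further 203 rows lie within 1000000 bases of the centromere end of arms 2L, 3L, 3R and X. In the samples labelled SIN3 knockdown 6 of 127 tested rows were called lower, or 4.72%, and 3 higher, with a median of -0.08. This median was -0.51 on 3L (7 rows), -0.26 on X (26 rows), -0.21 on 2L (29 rows) and 0.00 on 3R (65 rows). In the double knockdown 10 of 127 were called lower, or 7.87%, and 2 higher, with a median of -0.20. Of all rows tested, 4.35% were called lower and 3.34% higher in the samples labelled SIN3 knockdown, and 6.14% and 3.48% in the double knockdown. The shares of arm rows called lower were near these. After SAM-S knockdown 0.163% of all rows tested were called.

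**Figure D5:**
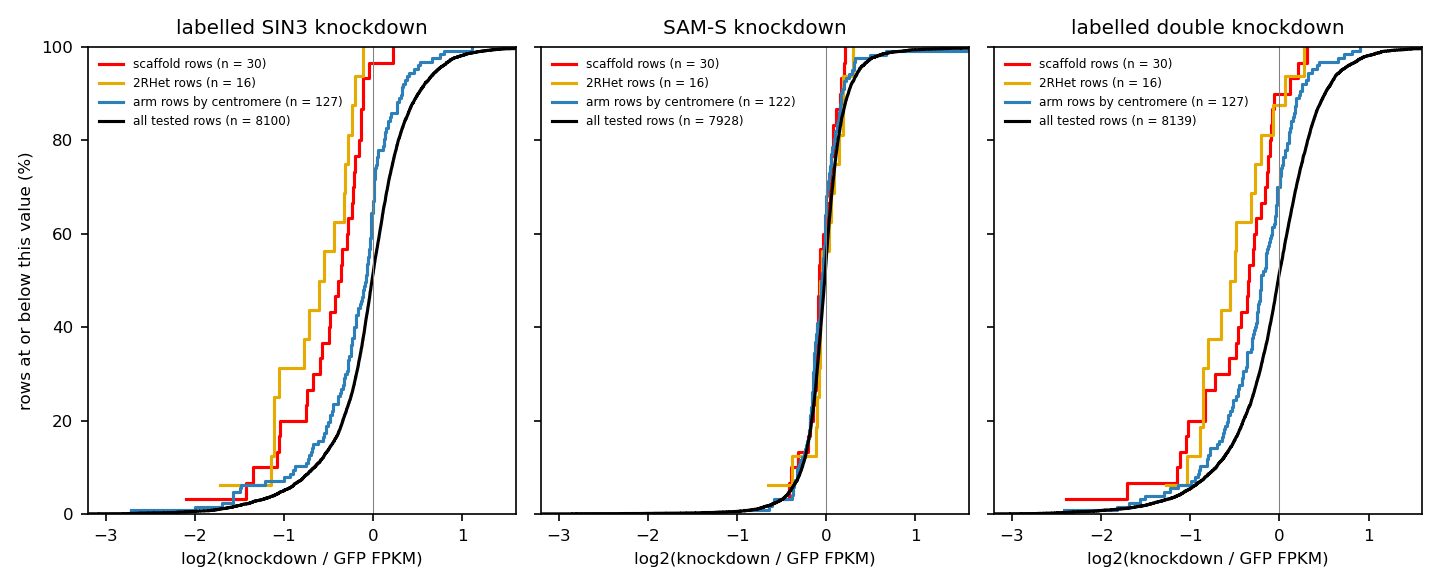
Cumulative share of tested rows (y, percent) by log2 ratio of knockdown to control FPKM (x) for the scaffold rows, 2RHet rows, arm rows within 1000000 bases of the centromere end and all tested rows. The scaffold and 2RHet curves lie left of the curve of all tested rows in the SIN3 and double knockdown panels, and the curves run close together after SAM-S knockdown.

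Genes for heterochromatin proteins and their partners were read in the same tables. Of 22 listed genes 21 were tested, with none called in the samples labelled SIN3 knockdown, none after SAM-S knockdown, and 1 called lower in the double knockdown. Of all rows tested, 7.68%, 0.163% and 9.62% were called, so counts this small over 21 genes do not set the list apart. Its medians were -0.09, -0.01 and -0.18. The rows of Su(var)3-9 (with eIF-2gamma), egg (with Lcp9) and Kdm4B (with CG17724 and seq) are merged. Their values are thus not those of the listed genes alone. The called gene was AGO2 of the RNA interference pathway, with 199.8 FPKM as its control value and 114 in the double knockdown (-0.81), for which the authors' deposited table gave q = 0.00782. Among all 21, in the samples labelled SIN3 knockdown the values farthest from 0 were those of the small RNA effector piwi (-0.60), the histone deacetylase gene Rpd3 (-0.49) and D1, which binds satellite DNA (-0.44). The HP1a gene went from 342 to 274 FPKM in those samples (-0.32) and was not called. After SAM-S knockdown the values farthest from 0 were those of wde (0.55), AGO2 (-0.27) and Su(var)3-9 in a merged row (0.16). In the double knockdown they were those of piwi (-0.86), AGO2 and Rpd3 (-0.47).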

How the data were processed

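RNA-seq of S2 cells was deposited as 3 tables, each setting 1 knockdown group against the GFP group. The authors used bcl2fastq and Cuffdiff on build dm3, per the submitters' processing notes. Aligner, annotation, strand setting and versions: not given in the sources used here. The deposited FPKM values are pooled over 3 samples per group, per the labels, so no replicate test could be run. A test statistic (a score, not used here), p-values and q-values stand beside them in the deposited tables, per the file headers. Whether the p-values reflect sample-to-sample spread cannot be told.

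Rows were joined by locus and symbol. Log2 ratios were computed from FPKM without a pseudocount, and a row was called at a deposited q under 0.05. Starts were taken as counted from 0, and 1 was added. Present-day names came from RefSeq (assembly Release 6) for 169 of 228 rows. No sequence is printed. Python 3.11.15 and pandas 2.3.3 were used, and the adjustment was tested on simulated data. Named were all called members, the 4 highest tested rows per scaffold, the 5 highest and 5 lowest ratios per table among rows of at least 1 FPKM in both conditions, and listed genes on the scaffolds. Other members, the mitochondrial group and the rRNA pseudogenes were singled out, and the chromatin and RNA processing genes grouped, after their values were seen. Members and lists were chosen with earlier results of these data known.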

Additional observations from a re-analysis of the deposited data

How the results depend on the processing

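Counts of called members depended on the threshold: at a q under 0.01, 1 member was called in the SIN3 table and 2 in the double table. With the 2RHet rows added, 11 rows were called in the SIN3 table and 8 in the double table. A Benjamini-Hochberg adjustment of the same deposited p-values over each table's tested rows gave 7, 0 and 6, which is no independent check. Leaving out merged rows, or U and Uextra, could not change a count, since no such row was called. Leaving out the rRNA pseudogenes, an alternative chosen after seeing the data, gave 5, 0 and 6. The median log2 ratio ranged from -0.43 to -0.35 in the SIN3 table, from -0.09 to -0.06 in the SAM-S table and from -0.39 to -0.32 in the double table over the same alternatives, 1 added to each FPKM, filters on FPKM and centring on all tested rows. No paired analysis was possible because the tables hold 1 pooled value per group, and leaving out a replicate could not be run for the same reason. Without counts, the precision of low FPKM values is unknown.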
